A study of Mus musculus with 4 samples.

Results

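*Zfp42*, *Dppa2* and *Dppa4* are pluripotency genes whose chromosomal domains are known to become late replicating when mouse embryonic stem cells (mESCs) differentiate. Their population-based replication timing was described here in undifferentiated diploid F121-9 cells. The members were the 50 kb bins that overlap the gene bodies in GENCODE vM21, together with the bins within 1 Mb on each side. This gave 3 genes at 2 loci. The gene bodies overlapped 4 bins, and the windows held 84 bins of the 51153 bins on the autosomes and X. All 84 had a value.

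F121-9 is an mESC line from a cas/129 hybrid (*Castaneus* by *musculus* 129), grown undifferentiated in N2B27 medium with 2i inhibitors and LIF. After a BrdU pulse, cells of the early and of the late part of S-phase were collected by flow sorting, and the BrdU-labeled DNA of each fraction was sequenced (Repli-seq). There were 2 early and 2 late libraries of the same untreated line. The deposited profile gives 1 value for each bin, the log2 of early over late reads (RT). A positive RT means that the bin was enriched in the early fraction. The file does not separate libraries or parental homologs, and how replicates were combined is not given in the sources used here, so no replicate error, allele-specific value or test between samples can be given. The depth behind a bin is unknown. The error given is a noise SD of 0.16 log2 per bin, from the deviation of bins from their neighbors in flat stretches of the profile. It leaves out differences between cultures. No differentiated cells were measured, so the profile shows the stem cell state only and no switch.

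In mammals, DNA replicates in large domains whose origins fire at similar times. Early domains correspond largely to the active nuclear compartment and late domains to the inactive one. Between them, timing transition regions (TTRs) connect an early summit to late surroundings. A part of all domains changes its timing during differentiation, and loci of genes expressed in pluripotent cells only are among those that turn late. *Zfp42*, also known as *Rex1*, encodes a zinc finger protein that is a widely used marker of the naive pluripotent state. It arose as a retroposed copy of *Yy1*, as did *Yy2*. *Dppa2* and *Dppa4* lie side by side and encode related proteins with a SAP domain, which bind chromatin together and keep developmental and early embryonic genes ready for activation.

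*Zfp42* (ENSMUSG00000051176.6) lies on the minus strand of chromosome 8 from 43295063 to 43306980 (mm10). The promoter of *Zfp42* is shown because it lies in one of the 2 bins that carry the gene, and that of *Yy2* because its locus had the RT profile most like that of *Zfp42*. Of the 3 members, 1 was matched in the RefSeq promoter sequences (GRCm38.p6), and *Dppa2* and *Dppa4* were not. The 250 bases upstream of each RefSeq start are given 5′ to 3′ on the minus strand, chr8:43307010-43307259 for *Zfp42* and chrX:157568986-157569235 for *Yy2*. For *Zfp42* the RefSeq start lies upstream of the GENCODE start at 43306980. Capitals mark the octamer ATTTGCAT, the sequence that POU factors such as Oct4 recognize.
Zfp42: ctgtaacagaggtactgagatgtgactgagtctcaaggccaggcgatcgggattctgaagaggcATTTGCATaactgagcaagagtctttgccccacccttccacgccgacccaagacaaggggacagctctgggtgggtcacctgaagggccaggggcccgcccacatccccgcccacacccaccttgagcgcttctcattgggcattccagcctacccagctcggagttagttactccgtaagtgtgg
Yy2: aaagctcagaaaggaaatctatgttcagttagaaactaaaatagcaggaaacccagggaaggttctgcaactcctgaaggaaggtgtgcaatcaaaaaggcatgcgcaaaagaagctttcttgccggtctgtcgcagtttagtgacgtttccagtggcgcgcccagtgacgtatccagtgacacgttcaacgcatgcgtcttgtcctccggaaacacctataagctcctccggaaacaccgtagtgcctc

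The octamer was searched on both strands of the 250 upstream bases. It occurred 1 time before *Zfp42*, from position -186 to -179 relative to the RefSeq start, and 0 times before *Yy2*. Of the 32851 RefSeq promoters, 526 (1.60%) held it. The *Zfp42* promoter had 9 CpG dinucleotides, compared with a median of 6 over all promoters, and that of *Yy2* had 13. The 50 kb bin with the start of *Zfp42* had more CpG than 94.9% of the 2846 bins of similar RT (within 0.25 log2). The other member bins did not share this, with 27.7% of bins of similar RT lower for the second *Zfp42* bin, 17.0% for the *Dppa2* bin and 39.8% for the *Dppa4* bin. Of 880 early domains, 18.0% had less CpG than the *Zfp42* domain and 15% less than that of *Dppa2* and *Dppa4*. The octamer match is a description of the sequence and is not a measured binding site.

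All 3 genes replicated early in these cells, while 40.9% of all bins and 72.5% of protein-coding genes had an RT above 0. *Zfp42* overlapped 2 bins, with an RT of 2.80 in the bin that holds its 3′ end and 2.52 in the bin that holds its start. Its mean was 2.66 ± 0.11 (noise SE over 2 bins). *Dppa2* (ENSMUSG00000072419.5, chromosome 16, 48303908 to 48319723, plus strand) lay in 1 bin with an RT of 2.36. *Dppa4* (ENSMUSG00000058550.15, 48283733 to 48294237, plus strand) lay in the neighboring bin with an RT of 2.18. The order of the levels was therefore *Zfp42*, *Dppa2*, *Dppa4*. *Dppa2* and *Dppa4* differed by 0.17, which is 0.78 times the noise SD of a difference, and *Zfp42* and *Dppa2* by 0.31, or 1.57 times that SD. With this genome-wide noise SD, neighbors in this order were not separated beyond 2 SDs. *Zfp42* and *Dppa4*, at the ends of the order, differed by 0.48, or 2.47 times. The local noise SD was lower, 0.14 in the *Zfp42* window and 0.086 in that of *Dppa2* and *Dppa4*. With the local values these ratios would be larger, so whether neighbors are separated depends on the noise estimate.

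Early here did not mean among the earliest. *Zfp42* had a higher RT than 84.0% of all bins, *Dppa2* than 80.7% and *Dppa4* than 79.0%. Many genes lie in early chromatin, however, and among 21679 protein-coding genes the members were close to the middle. *Zfp42* was above 57.0% of genes, *Dppa2* above 51.9% and *Dppa4* above 49.3%. When the share of bins with a higher RT is multiplied by an S-phase of 10 h, *Zfp42* was scheduled at 1.60 h, *Dppa2* at 1.93 h and *Dppa4* at 2.10 h.

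The RT profile around *Zfp42* was a single peak inside late chromatin. On chromosome 8, RT stayed between -3.96 and -3.18 in the 10 bins from 42250001 to 42750000. From 43050001 it then went through 0.89, 1.55, 2.25 and 2.56 to the summit of 2.80 in the bin from 43250001 to 43300000. It returned through 2.52, 2.35, 1.80, 1.22 and 0.86 to 0.06 in the bin that ends at 43600000. These 11 consecutive bins with RT above 0 formed an early domain of 550 kb, with a mean RT of 1.72. RT crossed 0 at 43027363 and at 43578900 by interpolation. *Zfp42* starts 280 kb from the left and 272 kb from the right border, close to the middle. The summit is the bin that holds the 3′ part of *Zfp42*, and it exceeded its left and right neighbors by 1.05 and 1.23 noise SDs of a difference, so the position of the maximum is known only to within these bins. The lowest RT within 1 Mb of the domain was -3.96 on the left and -3.84 on the right. From these levels the summit was higher by 6.76 and 6.64 log2.

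The domain of *Dppa2* and *Dppa4* was longer and less symmetric. On chromosome 16, RT was between -4.11 and -3.56 in the 11 bins from 47250001 to 47800000. RT was above 0 in 16 consecutive bins from 48100001 to 48900000, a domain of 800 kb with a mean of 1.67. It went through 0.17, 0.95 and 1.53 to 2.18 at *Dppa4* and 2.36 at *Dppa2*. The next bins had 2.68, 2.69 and 2.59, and RT then declined slowly through 2.40, 2.00, 1.97, 1.80, 1.53, 1.04 and 0.51 to 0.27. The highest bin, from 48400001 to 48450000, was only 0.05 and 0.46 noise SDs above its neighbors, so the summit was a small plateau. *Dppa4* was 2.26 noise SDs of a difference below this bin. *Dppa2*, at 1.49, was not separated from it beyond 2 noise SDs of the genome-wide estimate. With the lower local noise SD of 0.086 both ratios would be larger. Both genes lay to the left of the highest bin. *Dppa4* starts 170 kb from the left border (48113807) and 624 kb from the right border (48907918). Relative to the middle of the summit bin, the start of *Dppa4* lies at -141 kb, and *Dppa2* lies between them.

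**Figure D1:**
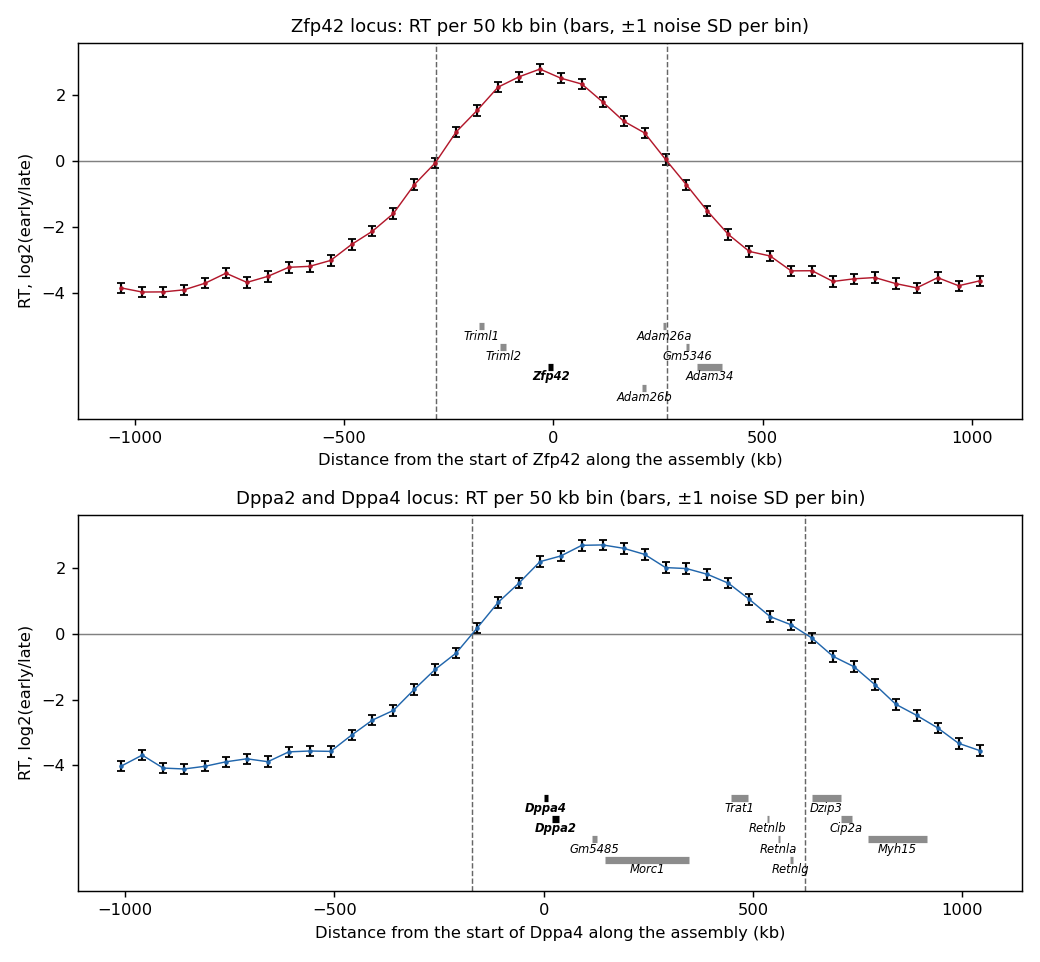
RT (log2 of early over late reads) of every 50 kb bin in the 2 windows, against the distance in kb from the start of *Zfp42* (top) or *Dppa4* (bottom), with bars for ±1 noise SD of 0.16, dashed lines where RT crosses 0, and protein-coding genes as black (members) or gray bars. *Zfp42* lies under the summit of a 550 kb domain, and *Dppa4* and *Dppa2* lie left of the summit of an 800 kb domain.

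The flanks of the peaks differed in slope. Around *Zfp42*, RT went from 1 to -1 over 125 kb on the left and 137 kb on the right. Around *Dppa2* and *Dppa4* it took 146 kb on the left but 246 kb on the right. The median over 1078 such transitions of the genome was 168 kb, with quartiles of 135 and 263 kb. The TTR to the left of *Zfp42* was longer than 14.6% of them and the one to its right than 26.8%. On chromosome 16 the left TTR was longer than 36.5% and the right TTR than 73.0%. Each level was taken at its first fall going outward from the highest bin of a domain. Where a domain dips below 1 and rises again, the width includes inner peaks. Some of the 1078 widths can therefore be too long, and their number was not counted. RT reached -3 at 500 kb left and 564 kb right of the middle of the *Zfp42* summit bin. At the other locus it reached -3 at 591 kb to the left and 815 kb to the right.

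When the domains were aligned at their summit bins, their profiles over 41 bins had a Pearson's r of 0.94 across bins, which are not independent, and a root mean square difference of 1.08 log2. The summits, 2.80 and 2.69, differed by 0.49 noise SDs. The profiles separated on both flanks. At 250 kb to the left of the summit, RT was -0.04 in the *Zfp42* domain and 0.95 in the other. To the left, the *Dppa2* and *Dppa4* domain remained above 0 for 311 kb from its summit and that of *Zfp42* for 248 kb, and to the right for 483 and 304 kb.

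Each domain stood alone. Going left from the *Zfp42* domain, 1500 kb without a bin above 0 followed before the next early bin, and going right 2300 kb. For *Dppa2* and *Dppa4* these stretches were 1550 and 6800 kb long. Among 880 early domains with values for 1 Mb on both sides, 142 (16.1%) had no other early bin within 1 Mb and an RT at or below -3 on each side, and both loci were among these. The start of 7.68% of all protein-coding genes lay in such a lone domain. This definition was made after the values at the loci had been seen, so it describes the loci and tests nothing. The median length of the 880 domains was 600 kb, with quartiles of 250 and 1250 kb, so neither domain was unusual in length. The *Zfp42* summit was higher than 71.8% of the summits of 149 domains within 100 kb of its length. The *Dppa2* and *Dppa4* summit was higher than 35.2% of those of 105 domains within 100 kb of its own.

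**Figure D2:**
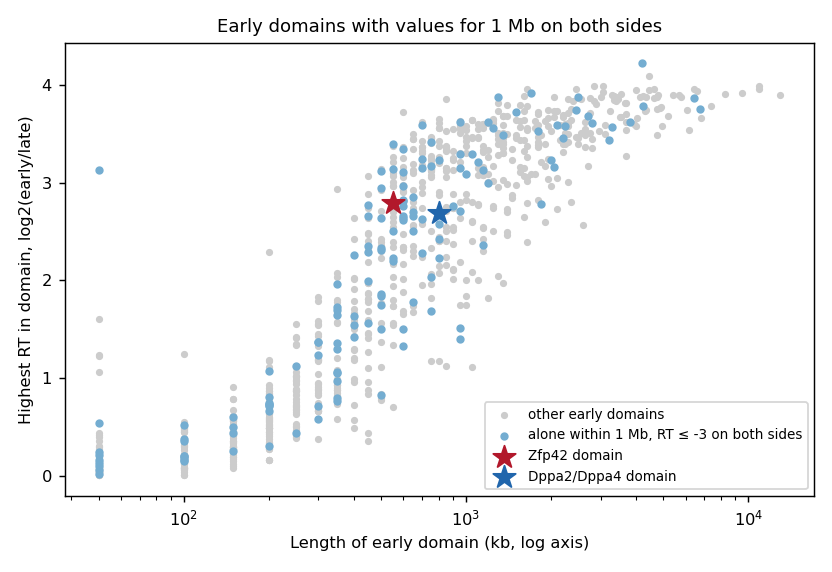
Highest RT (log2 of early over late reads) against length in kb (log axis) for the 880 early domains with values for 1 Mb on both sides. Blue points are the lone domains with RT at or below -3 on each side, and stars are the domains of *Zfp42* (550 kb, 2.80) and of *Dppa2* and *Dppa4* (800 kb, 2.69), which lie among other domains of their length.

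Of the 42 bins in the *Zfp42* window, 11 (26.2%) had RT above 0, and of the 42 bins around *Dppa2* and *Dppa4*, 16 (38.1%). The share over all bins was 40.9%. Mean RT was -1.74 in the first window and -1.06 in the second. Within the windows the members were far from their surroundings. RT of *Zfp42* was 6.50 log2 above the higher of the lowest values on its sides, 33.5 times the noise SD of the difference. That of *Dppa2* was 5.90 above (26.3 times) and that of *Dppa4* 5.51 above (24.6 times). The reference levels of these neighbors differed, because the window of *Dppa4* ends earlier on the right. The right minimum was -3.55 for *Dppa2* and -3.33 for *Dppa4*, so their rises do not differ by RT of the genes alone. These surroundings were chosen as the lowest bins, so the ratios give the size of the contrast relative to noise and are not a test.

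The genes that share the early domains were of mixed kinds, and their RT followed their distance from the summit. In the *Zfp42* domain lay 5 protein-coding gene starts. *Triml1*, which encodes a tripartite motif protein of the early embryo, had an RT of 1.55, and its neighbor *Triml2* had 2.25. On the other side of *Zfp42*, the testis-expressed metalloprotease genes *Adam26b* and *Adam26a* had 0.86 and 0.06. The next genes already lay beyond the right border: *Gm5346* at -0.71 and *Adam34*, another ADAM family gene, at -1.86. The ADAM genes of this locus thus spread from the early domain through the TTR into late chromatin. On the left no protein-coding gene was found for 1610 kb beyond the border, up to *Frg1*, which was itself early (RT 2.03).

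The *Dppa2* and *Dppa4* domain held 8 protein-coding gene starts. The start of *Morc1*, which encodes an ATPase that silences transposons in the male germline, lay in the summit bin (RT 2.69), as did that of *Gm5485*. The gene body of *Morc1* spans 5 bins and had a mean of 2.33. *Trat1*, encoding an adaptor of the T cell receptor, had 1.28. The resistin-like genes *Retnlb* and *Retnla* shared a bin with 0.51, and *Retnlg* had 0.27. Beyond the right border came *Dzip3*, a ubiquitin ligase gene, at -0.41, *Cip2a*, which encodes an inhibitor of the phosphatase PP2A, at -0.85, and *Myh15*, a myosin gene, at -2.06. The nearest gene on the left, *Nectin3* (cell adhesion), lay 1615 kb from the border and had a mean RT of -0.28. Both loci thus had protein-coding genes on the right flank and a stretch of over 1 Mb without any on the left. Non-coding genes were not examined.

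Other genes of pluripotency were mostly early as well, and most of them were earlier than the members. Of 16 core pluripotency factors, 15 had an RT above 0, with a median of 3.34, and of 11 other pluripotency markers all 11 did, with a median of 3.24. Over all protein-coding genes the share was 72.5% and the median 2.23. *Pou5f1* (Oct4) had 3.51, *Sox2* 3.35, *Nanog* 3.17, and *Esrrb*, a nuclear receptor of naive cells, 3.37. *Dppa3*, a maternal factor also known as Stella, and *Dppa5a*, an RNA-binding protein gene, had 3.24 and 3.43. *Tcl1*, which encodes a coactivator of Akt, had 1.65, lower than all members. *Nr0b1*, the X-linked gene of Dax1, was the only gene of both lists with a negative RT, -1.46. The lists are descriptive and were set up with earlier results of these data known.

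Genes that mark other states had lower medians. Of 6 genes of the two-cell-like state, which Dppa2 and Dppa4 are known to activate, 2 had an RT above 0, and the median was -2.96. *Zscan4c*, *Zscan4d* and *Zscan4f* had -3.37, -2.98 and -3.23, while *Tcstv3* had 1.95. The *Zscan4* genes and the *Tcstv* genes are near-identical copies, where reads that map to several places can distort a value. Of 13 germ layer regulators, 9 had an RT above 0, a share near the 72.5% of all protein-coding genes. At a lower limit, the median of all bins (-0.98), 12 of the 13 were above. More than 72.5% of all protein-coding genes also lie above this limit, because it is below 0. The share of genes at this limit was not counted, so the 12 cannot be read as an excess. The median of the germ layer regulators was 1.53. The endoderm factors *Gata6*, *Sox17* and *Foxa2* had -0.49, -0.36 and -0.61. *Mesp1*, a mesoderm factor, was earliest at 3.52. The members thus lay below the medians of the pluripotency lists and above that of the germ layer list.

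**Figure D3:**
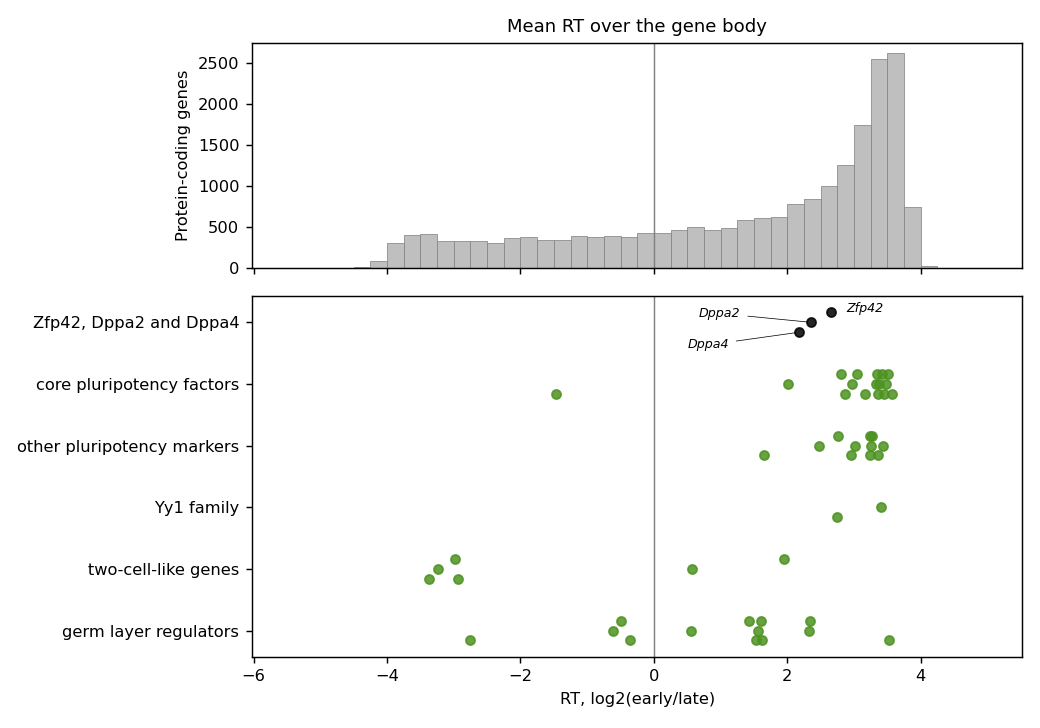
Mean RT over the gene body (log2 of early over late reads) for all protein-coding genes as a histogram in steps of 0.25 (top), and for the members and 5 gene lists with 1 point per gene (bottom, height within a row has no meaning). The members lie between 2.18 and 2.66, while most core pluripotency factors lie above 2.80.

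To find loci with the same shape, RT over 41 bins centered on the start of each protein-coding gene was compared with that of the members. Among 19898 genes outside the windows with values in all 41 bins, the profile closest to *Zfp42* was that of the bin on X from 157550001 to 157600000, in which *Mbtps2*, the gene of the site-2 protease, and *Yy2* both start. *Yy2*, which encodes a zinc finger protein, lies inside *Mbtps2* (157566119 to 157568985) and had an RT of 2.75. The root mean square difference from *Zfp42* was 0.24 log2 and Pearson's r was 0.99 across bins. The largest difference in any bin was 0.49, and 3 of 41 bins differed by more than 2 noise SDs of a difference (0.45). The domain of *Yy2* was also 550 kb long, with a summit of 2.82 and minima of -4.11 and -3.95 on its sides. *Yy1*, the parent gene, lay on chromosome 12 in a domain of 5400 kb with an RT of 3.40, and its profile ranked 8024 with a difference of 3.67. The next loci after *Yy2* were those of *Nipa2* (0.37), a magnesium transporter gene, and *Slc25a3* (0.38), the gene of the mitochondrial phosphate carrier. The median difference of all these genes from *Zfp42* was 3.95.

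For the *Dppa2* and *Dppa4* locus the closest profiles were less alike. *Prdm13*, a neural transcription factor gene on chromosome 4, differed from *Dppa4* by 0.48, *Sh3rf2* on chromosome 18 by 0.49, and *Deptor*, which encodes an inhibitor of mTOR on chromosome 15, differed from *Dppa2* by 0.56. Their domains were 650, 700 and 800 kb long. *Zfp42* and *Dppa2*, centered on their starts, differed by 1.75 log2, and 684 of the 19898 genes (3.44%) were closer to *Zfp42* than *Dppa2* was. *Zfp42* and *Dppa4* differed by 2.05 log2, and 1210 genes (6.08%) were closer.

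**Figure D4:**
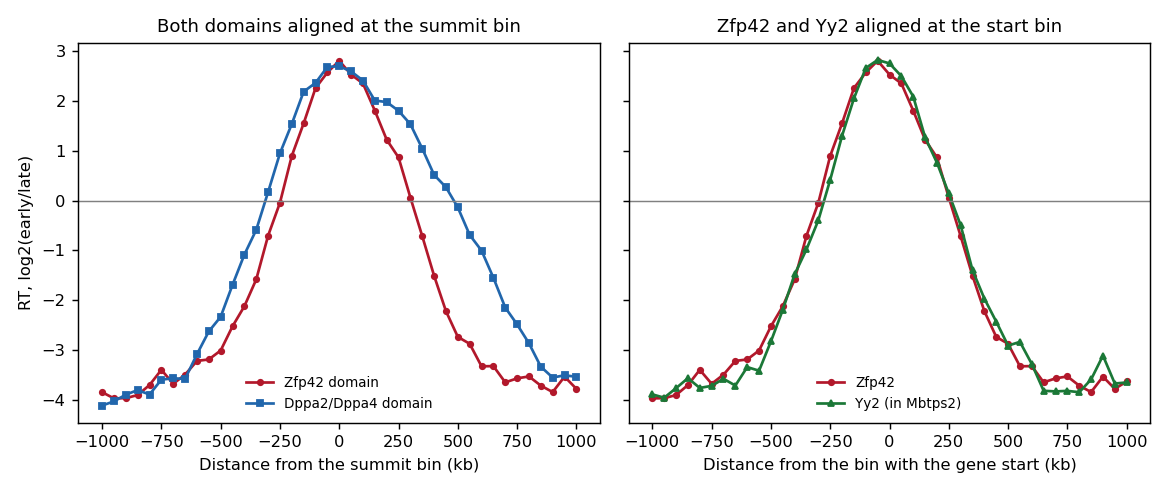
RT (log2 of early over late reads) over 41 bins of 50 kb against distance in kb. On the left the domains of *Zfp42* and of *Dppa2* and *Dppa4* are aligned at the summit bin and separate on both flanks, and on the right the profiles of *Zfp42* and *Yy2*, aligned at the bin with the gene start, differ by at most 0.49 in any bin.

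Compared with most early domains, both were poor in G+C and rich in masked repeats. The *Zfp42* domain had 40.5% G+C, and 11.6% of the 880 early domains had less. The *Dppa2* and *Dppa4* domain had 40.9%, and 16.5% had less. The median of the 880 was 43.4%. Compared with the 49 lone domains of 500 to 900 kb, the domain of *Zfp42* had less G+C than 40 and that of *Dppa2* and *Dppa4* less than 36. Among all 142 lone domains the contrast was weaker, with 26.8% lower than the *Zfp42* domain and 33.1% lower than the other. Repeat-masked bases made up 42.4% and 40.3% of the domains, where the median of all early domains was 29.5%. Of the 880, 94.2% had a lower share than the *Zfp42* domain and 91.5% than the other. Of the 27 early bins in both windows, 26 had a G+C content below the median of bins of similar RT (within 0.25 log2), and 23 had a masked share above it. Of the 57 late bins in both windows, 42 were below the G+C median and 38 above the masked median. The late surroundings thus leaned the same way, to a lesser extent. By construction about 50% of all bins lie on each side. Neighboring bins share their composition and are not independent. The bins of the members varied. The bins of *Dppa4* and of the *Zfp42* start had 43.9% and 44.4% G+C, where the medians for their RT were 44.3% and 44.4%. The *Zfp42* summit bin had 41.03% against a median of 44.6%, and the *Dppa2* bin 42.4% against 44.3%. The masked share was above the median in all 4 bins, and 94.0% of bins of similar RT had a lower share than the bin of *Dppa4*, 82.8% than that of *Dppa2*, and 69.5% and 89.5% than the summit and start bins of *Zfp42*.

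Within the windows, RT still followed base composition. Spearman's rho between RT and G+C content was 0.78 over the 42 bins around *Zfp42* and 0.76 over the 42 bins around *Dppa2* and *Dppa4*, and 0.74 over all bins of the genome. Neighboring bins lie in the same domains and have a similar base composition, so they are not independent. The early bins of the *Zfp42* window had a mean of 40.5% G+C and the late bins 37.7%, and in the second window these were 40.9% and 38.2%. The share of masked bases did not separate them in the same way (rho of 0.17 and -0.11). Reads of the hybrid line were mapped to the reference assembly, and the part that mappability of repeats has in these RT values was not tested.

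**Figure D5:**
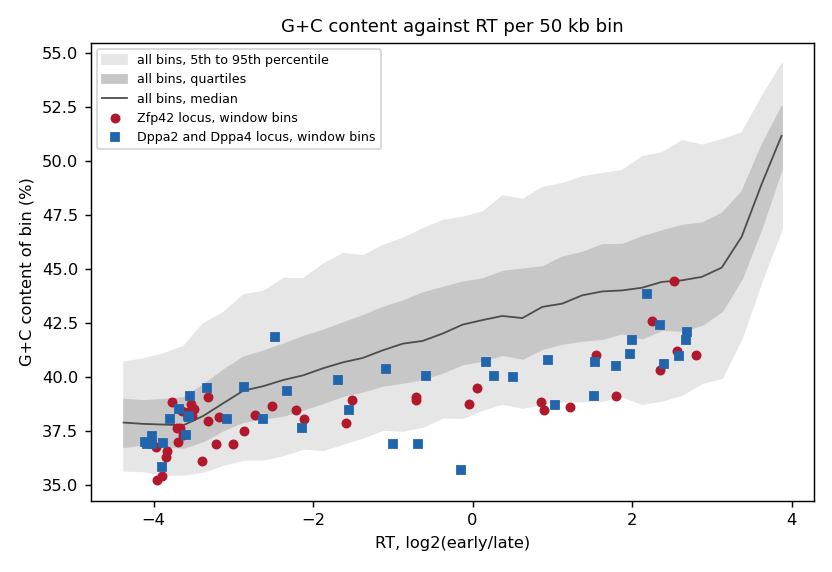
G+C content (%) of the 50 kb bins of both windows against RT (log2 of early over late reads), over the 5th to 95th percentile, the quartiles and the median of all bins in steps of 0.25. At RT above 0 all window bins but 1 lie below the median of bins of similar RT.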

How the data were processed

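Repli-seq data of 2 early and 2 late S-phase libraries of F121-9 mESCs were used. The values deposited by the authors are the log2 of early over late RPM in bins of 50 kb. The submitters' notes name mm10, Bowtie2, SAMtools and bedtools. How replicates were combined is not given in the sources used here. Genes were taken from GENCODE vM21, and G+C content and lower-case (repeat-masked) bases from the RefSeq GRCm38.p6 sequence, the same assembly. The file holds 51427 bins, and 51153 of them lie on the 19 autosomes or on X and entered every percentile.

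The RT of a gene was the mean over the bins its body overlaps. An early domain was a run of consecutive bins with RT above 0, with borders interpolated between bin centers. Transitions ran from the first fall to RT 1 to the first fall to RT -1, going outward from the highest bin of a domain. The noise SD came from the median absolute deviation of bins from the mean of their neighbors. It was scaled to the SD of a normal distribution and divided by the square root of 1.5. Only stretches of at least 10 bins with a slope over 5 bins of at most 2.5 log2 per Mb were used. The slope around the start bin was -3.96 for *Zfp42*, 5.61 for *Dppa2* and 8.57 for *Dppa4*, so the members lie on steeper stretches. Named genes were the members, genes starting in their domains, the nearest gene outside each border, 5 gene lists and the 3 most alike loci for each locus, at most 1 per 2 Mb. *Adam34*, *Cip2a* and *Myh15*, which lie in the windows, were named beyond this rule after their values were seen. The members and lists were chosen with earlier results of these data known. No test between samples was possible with 1 value per bin. Simulated profiles held symmetric peaks on a flat late floor with independent noise. On these, 841 of 876 domain borders were recovered within 50 kb, and a noise SD of 0.15 as 0.147. Independent noise is what the noise estimate assumes, and most flanks of the loci were steeper than any simulated flank. The accuracy on the real profile was thus not tested. Python 3.11.15, numpy 2.4.6, scipy 1.17.1 and matplotlib 3.10.9 were used.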

Additional observations from a re-analysis of the deposited data

How the results depend on the processing

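No paired analysis was possible because the file holds a single RT per bin and does not separate replicates, and no replicate could be left out for that reason. Of 48 alternatives, 35 left a value within 1 noise SD, within 1 bin in length, within the exact 95% binomial interval of a share or within 1.5 times for a count. A further 12 moved it, and 1 changed its sign. Some of the 35 could not move, because *Dppa2* and *Dppa4* each lie in 1 bin and the start bin is that same bin. The binomial interval treats neighboring bins as independent, which they are not, so it served only as a limit for counting. RT of the 3 genes taken at the start bin or after a running median or mean ranged from 2.52 to 2.59 for *Zfp42*, from 2.36 to 2.41 for *Dppa2* and from 2.02 to 2.18 for *Dppa4*. The *Zfp42* domain was 700 kb long with the limit at the median RT, 400 kb at RT 1 and 700 kb at RT -1, and that of *Dppa2* and *Dppa4* 950, 600 and 950 kb. With 0.5 Mb on each side, mean RT was -0.052 around *Zfp42* and 0.52 around *Dppa2* and *Dppa4*, where the sign changed, and the early share was 50% and 68.2%. With 2 Mb, the mean around *Dppa2* and *Dppa4* was -1.49 and the share 22.0%. A narrower window holds more of the early domain by construction. After the running median, *Zfp42* was 6.25 log2 above the higher minimum. The number of lone domains was 183 with RT at or below -2 and 102 at -3.5, limits chosen after seeing the data. No read counts came with the profile, so any limit set by depth stays unknown.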

Other observations

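Lone early domains also held some of the other pluripotency genes. Of the 16 core factors, the starts of *Klf2* (RT 3.49) and *Nr5a2* (2.87) lay in such a domain, and of the 11 other markers those of *Dppa5a* (3.43), *Fbxo15* (2.48) and *Tcl1* (1.65), while the share over all protein-coding genes was 7.68%. Of the 13 germ layer regulators, *Neurog2* (1.61) did. These genes were singled out after their values had been seen, and no test of the shares was made.

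The domain around *Yy2* was close to that of *Zfp42* in G+C content but not in masked share. It had 40.8% G+C, where that of *Zfp42* had 40.5%, and 37.3% masked bases, where that of *Zfp42* had 42.4%. The 49 lone domains of 500 to 900 kb had medians of 41.8% and 32.3%. The G+C likeness was not particular to *Yy2*, because the *Dppa2* and *Dppa4* domain had 40.9%. The *Yy2* domain held the starts of 6 protein-coding genes, *Klhl34*, *Mbtps2*, *Phex*, *Smpx*, *Sms* and *Yy2*, none of which lies near *Zfp42*. *Yy2* was placed on a list for its descent from *Yy1*, with earlier results of these data known. The rank belongs to the bin, which *Yy2* shares with *Mbtps2*, and whether the likeness has to do with either gene was not tested.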
